A study of Ovis aries with 15 samples.

Results

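The genes described here are those that the sheep annotation names ZNF followed by a number, the zinc finger protein genes of the standard nomenclature. The deposited table of 24691 features held 258 of them, all with an annotated transcript, and 228 reached at least 10 exon reads in at least 6 of the 15 libraries. A gene can meet this limit through the late pregnancy libraries alone, as *ZNF366*, *ZNF790* and several others did. The counts of lower genes below include such genes, and their share of those counts was not worked out. All 228 were among the 13345 genes tested between physiological states. Of the 30 that fell short, 3 (*ZNF193*, *ZNF648* and *ZNF804B*) had no read in any library. *ZNF187*, *ZNF300* and *ZNF365* stood just inside the limit, with at least 10 reads in 6 libraries, all of late pregnancy. *ZNF446* and *ZNF529* stood just outside, with at least 10 reads in 5. Of the 30, *ZNF529* alone passed the test's own filter and was lower in lactation (log2 change -0.98, SE 0.38, adjusted p 0.0292), but it is not counted below.

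A zinc finger is a short loop of protein folded around a zinc ion, and the C2H2 type, the commonest, reads DNA through arrays of such loops. Many of these proteins also carry a KRAB domain, which binds the co-repressor TRIM28 and through it the histone methyltransferase SETDB1 and the HP1 proteins, and silences the DNA to which the fingers bind, mobile elements above all. The genes have multiplied by local duplication and lie in clusters of neighbours in mammalian genomes. The symbol is given by protein motif and not by function, so that the group also holds cytoskeletal, ribosomal and RNA-binding proteins.

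RNA was sequenced from needle biopsies of mammary parenchyma of 2-year-old Romney ewes in their first pregnancy, taken on day 135 ± 2.4 (SD) of gestation and on day 15 ± 1.27 after lambing. The 9 late pregnancy and 6 lactation libraries were pools of ewes, whose number per pool was given as 3 for both states in the methods and as 2 for lactation in the labels. The ewes' own dams had been fed in early gestation either ad libitum (HM), at maintenance (MM) or below maintenance (LM) and at maintenance afterwards, with 3 late pregnancy and 2 lactation pools from each dam group. All ewes were themselves grazed under the same management and fed alike. By the methods ewes were biopsied in late pregnancy and again in lactation, so ewes can be shared between the states, but which ewes entered which pool is not given and the libraries were compared as separate samples.

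Counted reads ranged from 6471237 to 16898986 per library in late pregnancy and from 9014506 to 24001031 in lactation. Messenger RNA of 7 milk protein genes took 13.7% to 23.4% of them in late pregnancy and 71.3% to 75.8% in lactation and all 7 were higher in lactation. ZNF genes took 0.399% to 0.468% of the late pregnancy reads and 0.103% to 0.123% of the lactation reads. Without the 7 milk protein genes these shares were 0.510% to 0.546% and 0.416% to 0.443%. Changes are given below as log2 of lactation over late pregnancy after TMM scaling, which sets the bulk of genes equal between libraries, with genes called where the adjusted p was below 0.05. Under scaling by library size alone the median of all tested genes moved to -1.94 and 95.2% of them were called lower, so directions hold only relative to the bulk of genes. With upper quartile scaling 44.9% of all genes tested were called lower and 25.6% higher, and the median of all genes was -0.18.

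Of the marker lists, luminal epithelium was present in both states, with a summed level of 1678 to 2073 CPM (counts per 1000000 reads, with TMM library sizes) in late pregnancy and 2636 to 2962 CPM in lactation, and 2 of its 9 markers tested were lower and 5 higher. All 9 markers of proliferating cells were lower (131.9 to 240.4 CPM summed in late pregnancy, 28.8 to 53.7 CPM in lactation), as were all 8 tested of T cells (50.0 to 80.2 CPM against 16.04 to 24.7 CPM), 6 of 8 of fibroblasts (842 to 1263 CPM against 617 to 827 CPM), 5 of 6 of endothelium (166 to 222 CPM against 102 to 142 CPM) and 6 of 9 of macrophages (168 to 217 CPM against 96.7 to 132.9 CPM, with *CD14* higher by 2.13 on the log2 scale). Myoepithelium (2 lower and 4 higher of 8, 827 to 919 CPM against 788 to 1140 CPM), adipocytes (1 higher of 6, 265.08 to 492.996 CPM against 733 to 885 CPM, of which *CIDEA* alone took a mean of 29.0 CPM and 462 CPM, with a median log2 change of -0.14 over the 6) and B and plasma cells (1 lower and 2 higher of 5, 29.6 to 76.5 CPM against 62.8 to 152.6 CPM, with *PAX5* at 0) moved in other ways. In these bulk samples fewer cells of a type and less RNA per cell cannot be told apart, and the part of cell makeup in the changes below was not tested.

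ZNF transcripts were scarce in both states. The median ZNF gene stood at 3.97 RPKM (reads per kilobase of exon per 1000000 reads, as deposited) in late pregnancy, against 7.53 RPKM for all genes tested, and at 0.911 RPKM against 2.22 RPKM in lactation. At least 1 RPKM was reached by 202 of the 228 in late pregnancy and by 108 in lactation. RPKM values are not corrected for the reads taken by milk protein genes and were compared only within a state.

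*ZNF75D*, a gene of the X chromosome, was the most abundant per length in both states, at 101 ± 5.88 RPKM (SD, n = 9) in late pregnancy and 32 ± 2.17 RPKM (n = 6) in lactation. *ZNF207* came next in both, at 50.1 ± 5.28 RPKM (SD, n = 9) in late pregnancy and 18.3 ± 0.883 RPKM (n = 6) in lactation, and encodes a spindle protein of dividing cells. *ZNF146*, *ZNF330*, *ZNF185*, *ZNF22*, *ZNF692* and *ZNF638* completed the first 8 in late pregnancy, between 37 and 26.6 RPKM. In lactation *ZNF692*, *ZNF330*, *ZNF664*, *ZNF146*, *ZNF259* and *ZNF576* followed, between 10.5 and 8.42 RPKM. *ZNF185* had left that group, at 1.16 RPKM and rank 96 of 228 in lactation from rank 5 in late pregnancy. *ZNF259* encodes the protein also known as ZPR1.

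More ZNF genes were lower than higher in lactation. Of the 228, 96 (42.1%) were called lower, where 35.2% of all genes tested were, and 40 (17.5%) were called higher, where 33.1% were. The remaining 92 were not called. The median log2 change was -0.20 for ZNF genes and -0.03 for all genes tested, and the middle 50% of ZNF genes lay between -0.62 and 0.15. The difference between these medians depended on the normalization: it was -0.17 under TMM, upper quartile or library size scaling and -0.04 on the deposited quantile-normalized RPKM plus 1.

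Large changes were few. A fall of more than 2-fold was called in 22 ZNF genes (9.65%; 13% of all genes tested) and a rise of more than 2-fold in 9 (3.95%; 9.13%). The lactation libraries lay wholly below those of late pregnancy in 41 ZNF genes (18.0%; 20% of all genes) and wholly above in 20 (8.77%; 20.2%). The median size of change, leaving out its sign, was 0.41 for ZNF genes and 0.46 for all genes tested. The plot of change against level shows this narrow spread, with *ZNF185* and *ZNF469* standing outside it.

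**Figure D1:**
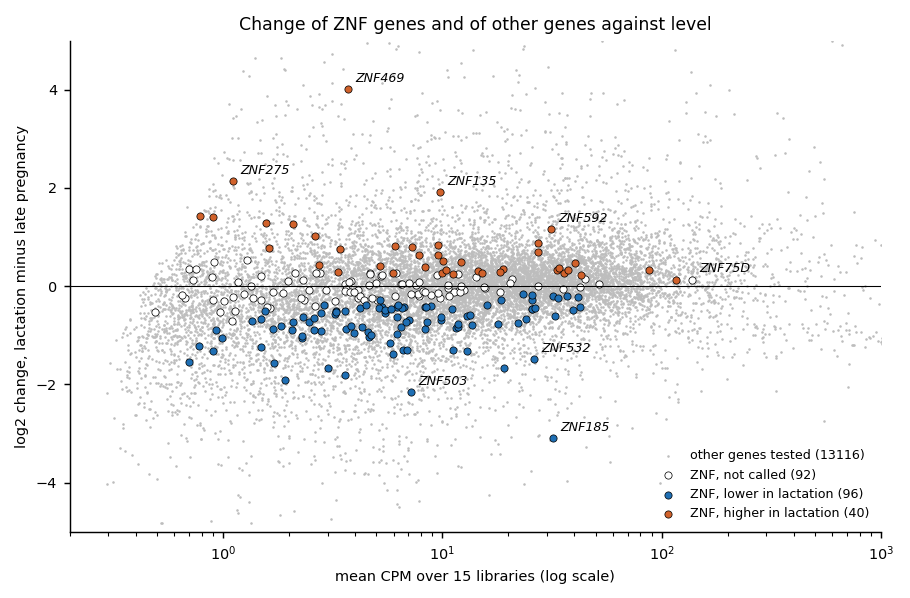
Log2 change from late pregnancy to lactation (vertical axis) against mean CPM over the 15 libraries (horizontal axis, log scale) for 228 ZNF genes (circles, coloured by call) and 13116 other genes tested (grey; those beyond the axes are not drawn). More ZNF genes lie below 0 than above, with *ZNF185* at -3.10 and *ZNF469* at 4.02 as the extremes.

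Calls were scarcer among weakly expressed genes, with 1172 of 2595 other genes not called in the lowest band below and 1529 of 5829 in the highest. ZNF genes were therefore set beside other genes of like expression, in 4 bands bounded by the quartiles of ZNF mean level, each with 57 ZNF genes. In the lowest band (0.496 to 2.51 CPM) 19 ZNF genes (33.3%) were lower and 7 (12.3%) higher, against 38.2% and 16.6% of 2595 other genes, and the medians were -0.28 and -0.40. In the next band (to 5.79 CPM) 28 (49.1%) were lower and 5 (8.77%) higher, against 40.8% and 25.9% of 1865 others. In the third (to 11.7 CPM) 24 (42.1%) were lower and 12 (21.1%) higher, against 37.0% and 30.8% of 2159. In the highest (to 136.7 CPM) 25 (43.9%) were lower and 16 (28.1%) higher, against 30.0% and 43.8% of 5829 others, and the medians were -0.09 and 0.09. The share called higher was the smaller one for ZNF genes in each of the 4 bands, and the share called lower was the larger one in the upper 3 bands but not in the lowest. These shares are descriptions, and no test of the difference was made.

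**Figure D2:**
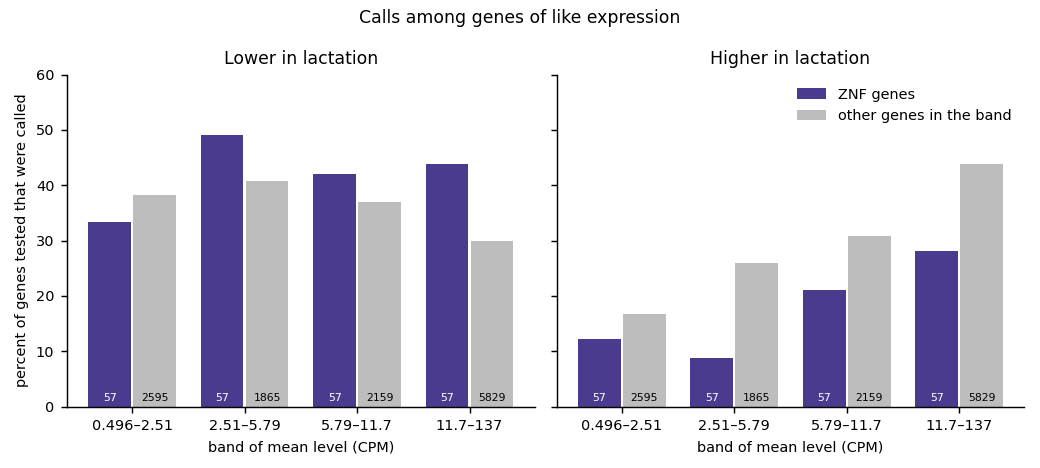
Percent of genes called lower (left) and higher (right) in lactation among ZNF genes (dark bars) and other genes (grey bars) in 4 bands of mean level in CPM, with the number of genes tested at the foot of each bar. In the highest band 43.9% of ZNF genes and 30.0% of other genes were lower, and 28.1% and 43.8% were higher.

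The largest fall was in *ZNF185* (chromosome X, 78227716 to 78279280 of the deposited coordinates), which encodes a LIM domain protein of the actin cytoskeleton. Its lowest, median and highest libraries were at 41.1, 49.4 and 57.6 CPM in late pregnancy and 3.81, 5.23 and 8.27 CPM in lactation. All lactation libraries lay far below all those of late pregnancy, an 8.58-fold difference (log2 change -3.10, SE 0.14, adjusted p 1.36e-13).

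*ZNF503* (chromosome 25, 31001727 to 31002599), annotated here with a single exon, encodes a co-repressor of the NET family. Its libraries ran at 7.33, 10.6 and 12.4 CPM in late pregnancy and 1.49, 2.45 and 2.93 CPM in lactation. The states did not overlap, and the gene was 4.44-fold lower in lactation (log2 change -2.15, SE 0.15, adjusted p 1.04e-10).

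*ZNF532* (chromosome 23, 58194291 to 58262250) fell from a high level, with lowest, median and highest values of 30.5, 34.5 and 39.3 CPM in late pregnancy and 11.4, 12.3 and 14.8 CPM in lactation (log2 change -1.48, SE 0.071, adjusted p 3.93e-13). Its protein forms a chromatin-reading complex with those of *ZNF592* and *ZNF687*, the 3 being related to each other. *ZNF592* (chromosome 18, 21524693 to 21546931) moved the other way, at 17.8, 20.7 and 25.3 CPM in late pregnancy and 40.4, 42.6 and 62.7 CPM in lactation, again without overlap (log2 change 1.16, SE 0.094, adjusted p 1.24e-09). *ZNF687* was not called (log2 change 0.067, SE 0.084, adjusted p 0.49). *ZNF532* and *ZNF592*, genes for partners in a complex, were thus called in opposite directions.

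*ZNF277* stood at 22.1, 26.7 and 30.0 CPM in late pregnancy and 6.68, 8.31 and 10.0 CPM in lactation, without overlap (log2 change -1.66, SE 0.098, adjusted p 9.98e-12). *ZNF496*, whose protein binds the histone methyltransferase NSD1, ran at 4.34, 4.93 and 6.01 CPM in late pregnancy and 0.381, 1.4 and 2.42 CPM in lactation (log2 change -1.81, SE 0.20, adjusted p 1.46e-07). Its lactation libraries spread widely but stayed below every late pregnancy library. *ZNF10*, from which the KRAB domain used in engineered repressors was taken, was at 3.37, 4.19 and 5.1 CPM in late pregnancy and 0.761, 1.39 and 1.9 CPM in lactation (log2 change -1.66, SE 0.18, adjusted p 6.22e-08), with no overlap.

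*ZNF683* encodes Hobit, a factor of tissue-resident lymphocytes, and ran at 1.55, 2.42 and 2.97 CPM in late pregnancy and 0.44, 0.637 and 1.63 CPM in lactation (log2 change -1.57, SE 0.25, adjusted p 1.62e-05). The highest lactation library exceeded the lowest of late pregnancy. All 8 T cell markers tested fell beside it, *CD3E* by 1.63 and *LCK* by 1.86 on the log2 scale, and their part in the change of *ZNF683* was not tested. *ZNF618* (-1.90), *ZNF48* (-1.38) and *ZNF226* (-1.33) completed the 10 largest falls, with adjusted p of 7.74e-06, 2.10e-09 and 3.86e-10 and no overlap between states. *ZNF618* rested on few reads in lactation, at 0.225 to 1.32 CPM per library (1.84 to 3.75 CPM in late pregnancy).

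*ZNF469* (chromosome 14, 13203996 to 13217887), whose loss causes brittle cornea syndrome in people and which has been tied to collagen fibrils, had the largest rise of the family. Its lowest, median and highest libraries were at 0.347, 0.541 and 0.887 CPM in late pregnancy and 6.43, 8.32 and 11.1 CPM in lactation. The states were far apart, with a 16.2-fold difference (log2 change 4.02, SE 0.19, adjusted p 3.84e-13), although all lactation values stayed modest. The fibroblast marker *COL1A1* went the other way, by -1.39 on the log2 scale (adjusted p 1.39e-06), the largest fall of the 8 fibroblast markers tested. The median of those 8 was -0.36, and *DPT* among them stood at 0.27 and was not called.

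*ZNF275* (chromosome X, 78020346 to 78033722) stood at 0.342, 0.47 and 0.647 CPM in late pregnancy and 1.52, 1.83 and 2.99 CPM in lactation, a 4.4-fold rise without overlap (log2 change 2.14, SE 0.21, adjusted p 2.58e-08). *ZNF135* (chromosome 14, 62407583 to 62419335) ran at 3.56, 4.56 and 5.99 CPM in late pregnancy and 11.8, 18.3 and 24 CPM in lactation (log2 change 1.92, SE 0.14, adjusted p 3.58e-10). Its nearest features on both sides are also ZNF genes, *ZNF606* at -0.46 (adjusted p 6.24e-05) and *ZNF329* at -0.46 (adjusted p 6.65e-05), so that this rise lay between falls of its neighbours.

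*ZNF76*, the close relative of *ZNF143*, was at 19, 20.6 and 22.1 CPM in late pregnancy and 34.9, 37.6 and 39.9 CPM in lactation, with little spread and no overlap (log2 change 0.87, SE 0.055, adjusted p 2.71e-11). *ZNF407* (0.84), *ZNF641* (1.03), *ZNF704* (1.28), *ZNF280B* (1.27) and *ZNF654* (0.82) completed the 10 largest rises, with no overlap between states and adjusted p from 6.38e-09 to 2.94e-05. *ZNF654* overlaps *CGGBP1* in the annotation, and reads of overlapping genes cannot be told apart without strand.

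**Figure D3:**
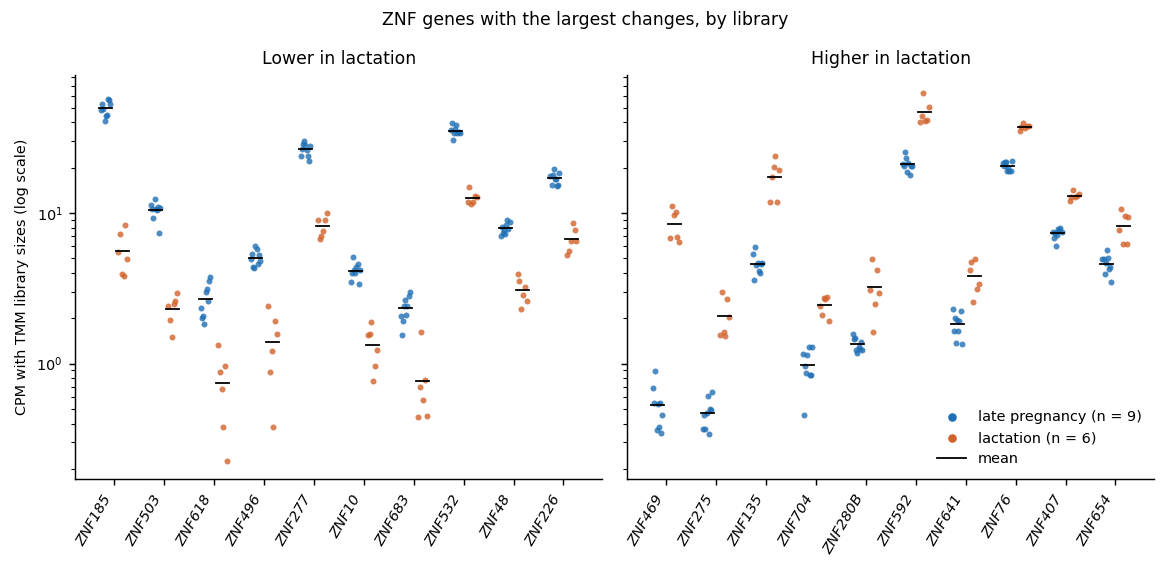
CPM with TMM library sizes (log scale) in each of 9 late pregnancy (blue) and 6 lactation (orange) libraries for the 10 ZNF genes with the largest falls (left) and rises (right) at a mean of at least 1 CPM, with the mean as a line. The states overlap in *ZNF683* only, and *ZNF469* goes from a highest value of 0.887 CPM in late pregnancy to a lowest of 6.43 CPM in lactation.

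Several of the most abundant members were nearly level between states. The 5 with the highest RPKM among those not called were *ZNF75D* at 0.13 (adjusted p 0.0591), *ZNF330* at -0.011 (adjusted p 0.901), *ZNF692* at 0.14 (adjusted p 0.165), *ZNF706* at -0.055 (adjusted p 0.366) and *ZNF644* at 0.051 (adjusted p 0.493). *ZNF75D* was called higher when any of 5 single libraries was left out. Its libraries ran at 118, 128 and 149 CPM in late pregnancy and 133, 143 and 158 CPM in lactation, which overlapped. On quantile-normalized RPKM plus 1 its change was -0.14 and that of *ZNF638* -0.049. *ZNF207* (0.34, adjusted p 1.10e-05), *ZNF664* (0.70, adjusted p 9.34e-08), *ZNF259* (0.33, adjusted p 5.09e-04) and *ZNF576* (0.33, adjusted p 0.00321) rose, and *ZNF146* (-0.22, adjusted p 0.00118) and *ZNF22* (-0.28, adjusted p 0.0035) fell.

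Members were also grouped by what their proteins are known to do. Of 8 genes listed for mammary or other epithelium, 5 were in the table and all were called, 4 lower and 1 higher (median -1.05), where 68.4% of all genes tested were called and 35.2% were lower. The list was drawn up with earlier results of these data known and holds the largest fall of the family, so its count is no independent evidence of a direction. *ZNF366*, counted here as lower, held fewer than 10 reads in every lactation library and met the read limit through late pregnancy alone. Beside *ZNF185* and *ZNF503*, *ZNF217*, an oncogene of breast tumours that works with co-repressors, ran at 2.71, 3.32 and 4.39 CPM in late pregnancy and 0.949, 1.75 and 3.05 CPM in lactation (log2 change -0.91, SE 0.20, adjusted p 4.58e-04). *ZNF366*, a nuclear receptor co-regulator also found in dendritic cells, was at 0.83, 1.26 and 1.84 CPM in late pregnancy and 0.338, 0.615 and 0.814 CPM in lactation (log2 change -1.05, SE 0.29, adjusted p 0.00323). *ZNF652*, a repressor studied as a breast tumour suppressor, was the exception, at 4.47, 5.84 and 6.79 CPM in late pregnancy and 7.83, 9.62 and 12.1 CPM in lactation, higher without overlap (log2 change 0.79, SE 0.11, adjusted p 2.85e-06).

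Of the 7 genes tied to fat cells or lipids, 3 (42.9%) were lower and 2 (28.6%) higher (median -0.42), where 35.2% and 33.1% of all genes tested were. *ZNF521* (-0.65, adjusted p 0.00514), a brake on adipocyte commitment, *ZNF395* (-0.43, adjusted p 0.00947) and *ZNF202* (-0.42, adjusted p 0.0016), a repressor of lipid transport genes, were lower. *ZNF467*, which favours adipocytes over bone cells, was higher at 0.0739, 0.532 and 0.796 CPM in late pregnancy and 0.44, 1.29 and 2.09 CPM in lactation (log2 change 1.42, SE 0.37, adjusted p 0.00218), with overlapping libraries at a low level. *ZNF638*, a nuclear protein that aids adipocyte genes, was called higher by 0.12 at an adjusted p of 0.0497, a call lost when any of 11 single libraries was left out. *ZNF423* (-0.45, adjusted p 0.138), which marks adipocyte precursors, and *ZNF516* (0.10, adjusted p 0.635) were not called, and *ZNF423* was called lower without lactation replicate 5 (log2 change -0.82). Of the 6 adipocyte markers tested *CIDEA* was called, higher by 3.99 on the log2 scale, and the others ran from -0.61 (*CIDEC*) to 0.049 (*FABP4*).

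Of 15 general promoter and enhancer binding factors listed, 14 were in the table, 5 (35.7%) lower and 6 (42.9%) higher, with a median of 0.15. Among all genes tested the shares were 35.2% and 33.1%. *ZNF143*, an activator at many promoters and a factor of chromatin loops, ran at 12.6, 13.1 and 14.1 CPM in late pregnancy and 15.1, 16.6 and 18.1 CPM in lactation, without overlap but over a narrow range (log2 change 0.30, SE 0.061, adjusted p 2.17e-04). *ZNF335*, part of a histone methyltransferase complex, was likewise higher without overlap (log2 change 0.37, SE 0.057, adjusted p 9.62e-06). *ZNF281* (0.27, adjusted p 0.0147) and *ZNF24* (0.23, adjusted p 0.0152) were higher by little, and each lost its call without 1 library (log2 change 0.19 without lactation replicate 1 and 0.17 without lactation replicate 2, in that order). *ZNF711*, an X-linked relative of *ZFX*, was lower at 5.95, 7.59 and 8.21 CPM in late pregnancy and 1.71, 3.35 and 4.4 CPM in lactation (log2 change -1.16, SE 0.13, adjusted p 1.90e-07). *ZNF131* (-0.19, adjusted p 0.00208) and *ZNF410* (-0.20, adjusted p 0.0114), the latter known for control of *CHD4*, were lower by little. *ZNF384* (0.22, adjusted p 0.0533) was not called, but was on leaving out any of 3 single libraries.

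Among proteins of RNA, ribosomes and mitosis, 11 of 12 listed were in the table, 3 (27.3%) lower and 4 (36.4%) higher, with a median of -0.01. The shares of all genes tested were 35.2% and 33.1%. *ZNF622*, a factor of large ribosomal subunit maturation (0.35, adjusted p 0.00168), *ZNF207*, *ZNF638* and *ZNF830* (0.24, adjusted p 0.0227; 0.15 and not called without lactation replicate 6) were higher. *ZNF326*, which couples splicing to transcription, was lower without overlap (log2 change -0.41, SE 0.058, adjusted p 3.01e-06), as were, with overlap, *ZNF346*, which binds double-stranded RNA (-0.42, adjusted p 0.00212), and *ZNF318* (-0.28, adjusted p 6.27e-04). *ZNF207* rose while all 9 markers of proliferating cells fell, and 66.9% of its reads were uniquely placed. The ubiquitin ligase of collided ribosomes *ZNF598* (0.0053, adjusted p 0.963) and the SUMO ligase *ZNF451* (0.21, adjusted p 0.288), the 2 of 5 ligases in the table, were not called.

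**Figure D4:**
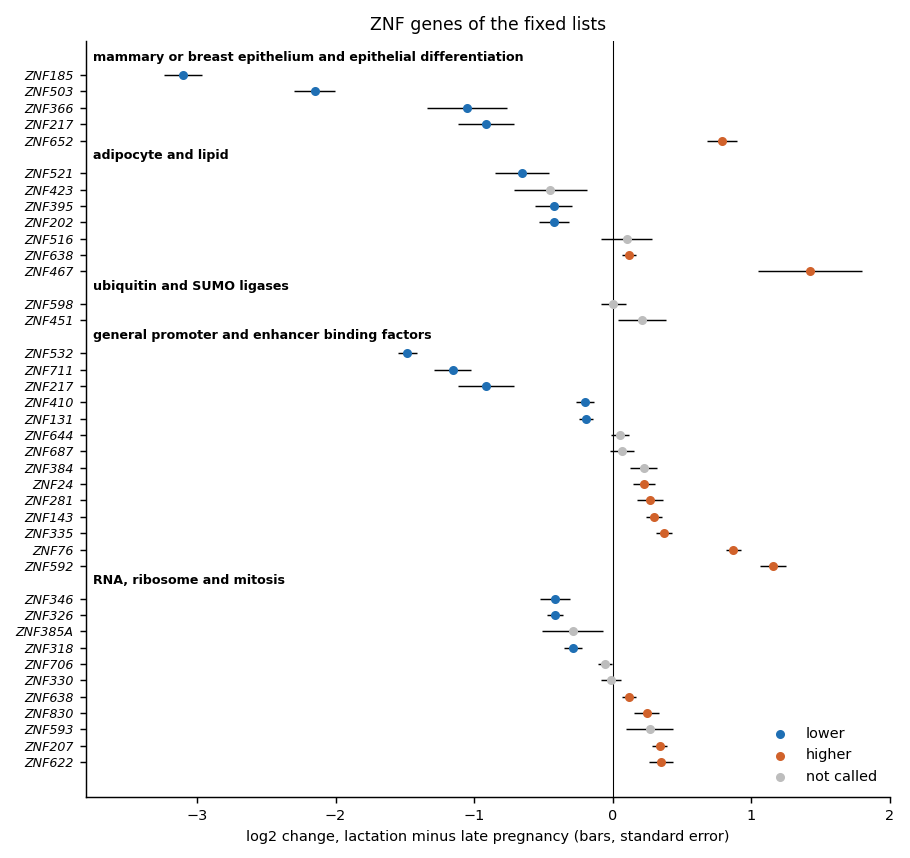
Log2 change (points) with its standard error (bars) for the ZNF genes of the 5 lists by known function, coloured by call. In the epithelial list 4 of 5 genes lie between -3.10 and -0.91, while the RNA, ribosome and mitosis list spans only -0.42 to 0.35.

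Transcripts of proteins through which KRAB zinc fingers act, and of related silencing and DNA methylation factors, were also counted. The list includes *ZFP57*, itself a KRAB zinc finger gene. Of the 36 genes listed 33 were tested, 20 (60.6%) lower and 6 (18.2%) higher, where 35.2% and 33.1% of all genes tested were. Their median log2 change was -0.25. Their summed level was 1304 to 1394 CPM in late pregnancy and 1117 to 1181 CPM in lactation. The list was drawn up with earlier results of these data known, so its count is no independent evidence of a direction. *TRIM28*, the scaffold, stood at 115 ± 5.89 CPM (SD, n = 9) in late pregnancy and 97.1 ± 6.35 CPM (n = 6) in lactation (log2 change -0.25, adjusted p 2.64e-04). *SETDB1* (-0.10, adjusted p 0.101) was not called, nor were the HP1 genes *CBX1* and *CBX5*, whereas the HP1 gene *CBX3* fell by 0.42 on the log2 scale. The largest falls of the list were in *UHRF1* (-2.73), *DNMT3B* (-1.39) and *SUV39H1* (-1.24), of which *UHRF1* is a maintenance factor of DNA methylation in dividing cells. *MORC2*, a partner of the HUSH silencing complex, rose by 0.52.

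Other zinc finger families were counted by symbol, beside the 35.2% lower and 33.1% higher of all genes tested, with no test between families. Of 35 *ZBTB* genes 8 were lower and 8 higher (median -0.03). Of 9 *ZSCAN* or *ZKSCAN* genes 4 were lower and 3 higher (median -0.11), of 15 numbered *ZFP* genes 7 were lower and 3 higher (median -0.49), and of 10 *KLF* genes 2 were lower and 3 higher (median 0.28).

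ZNF genes lay on 25 chromosomes, 69 of the 258 on chromosome 14 and 24 on chromosome 24. Of the 60 kept on chromosome 14, 28 (46.7%) were lower and 9 (15%) higher (median -0.28). Of the 168 elsewhere 68 (40.5%) were lower and 31 (18.5%) higher (median -0.19), where 35.2% and 33.1% of all genes tested were. Other genes of chromosome 14 had a median of -0.09, with 270 of 692 lower and 206 higher.

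ZNF genes were next split by whether they lay beside other ZNF genes. Runs of at least 3 ZNF genes with gaps under 100000 bases numbered 18, and held 80 of the 228. Of these 80, 44 (55%) were lower and 7 (8.75%) higher (median -0.43). Of the 148 outside such runs 52 (35.1%) were lower and 33 (22.3%) higher (median -0.11). Among all genes tested 35.2% were lower and 33.1% higher (median -0.03). Neighbouring genes are not independent of each other, and no test of this difference was made.

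The longest runs had 8 genes each. On chromosome 14 from 46369757 to 46759183, 5 of 8 were lower and none higher, between -1.32 (*ZNF790*) and -0.0029, with a median of -0.67. *ZNF790* met the read limit through late pregnancy alone. On chromosome 19 from 16224437 to 16387161, 5 of 7 kept genes were lower, with a median of -0.69. The 3 runs of 7, of which 6 genes each were kept, had medians of -0.46 (5 lower and 1 higher), -0.37 (3 and 1) and -0.42 (4 and 1). Of the 2 runs of 6, that on chromosome 4 had 2 lower and 1 higher (median -0.22), and that on chromosome 14 from 51113697 to 51245278 held *ZNF226* (-1.33), *ZNF234* (-1.30) and *ZNF227* (-0.83), with 5 of 6 lower (median -0.75). The run of 5 on chromosome 17 that holds *ZNF10* and *ZNF84* (-1.30) had a median of -0.94, with 3 of 5 lower. Not every run moved down: in that of *ZNF667* on chromosome 14 (60625207 to 60793228) none of 4 kept genes was lower and 2 were higher. *ZNF667* itself, 1 of these 2, lost its call on uniquely placed reads and without any of 6 single libraries.

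**Figure D5:**
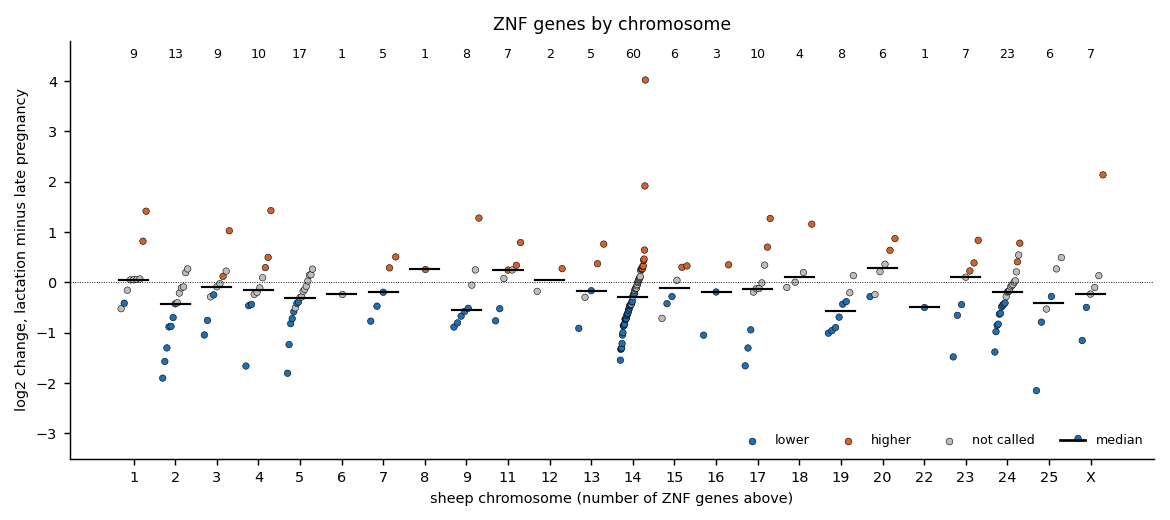
Log2 change of each kept ZNF gene (points, coloured by call) by sheep chromosome, with the median as a line and the number of genes above. Chromosome 14 carries 60 genes around a median of -0.28 and also *ZNF469*, at 4.02.

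ZNF genes had a median of 5 annotated exons, against 10 for all genes tested, at a similar exon length (2130 against 2021 bases). Of 48 ZNF genes with 7 to 9 exons 28 (58.3%) were lower and 5 (10.4%) higher (median -0.41), beside 35.2% and 33.1% of all genes tested. Of 61 with 5 to 6 exons 19 (31.1%) were lower and 10 (16.4%) higher (-0.11), and of 72 with 2 to 4 exons 28 (38.9%) and 11 (15.3%) (-0.24). Of 36 with at least 10 exons 16 (44.4%) were lower and 11 (30.6%) higher (-0.14), and of 11 with a single annotated exon 5 (45.5%) and 3 (27.3%) (-0.18). No steady trend with exon number appeared.

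Zinc finger arrays repeat between genes, so reads can be hard to place. The median share of uniquely placed exon reads was nevertheless 100% per gene, 210 of 228 genes had at least 99%, and 10 had under 90%. Of the 226 genes tested on uniquely placed reads alone, 94 were lower and 38 higher, where 35.3% and 33.0% of all genes tested on such reads were. The call was lost or gained in 6 genes. *ZNF181* (39.7% unique; -0.64 on all reads, -0.33 on unique reads), *ZNF200* (53.6%; -0.43 and -0.32), *ZNF619* (91.9%; -0.38 and -0.35) and *ZNF667* (42.7%; 0.27 and 0.071) lost it, *ZNF354B* (-0.29) gained it, and *ZNF295* (60.4%), higher on all reads (log2 change 1.41, SE 0.31, adjusted p 4.53e-04), had too few to be tested. *ZNF181* and *ZNF599* overlap each other, and 16 members overlapped some other feature. *ZNF619* and *ZNF667* also lost their calls without 2 and 6 single libraries, respectively.

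Reads inside the gene but outside its annotated exons, which unspliced RNA, unannotated exons and overlapping genes can all give, were sufficient in 156 ZNF genes. On these, 55 (35.3%) were lower, against 29.0% of 10344 genes tested, and 22 (14.1%) were higher, against 29.0%, with medians of -0.18 and -0.01. *ZNF185* changed by -3.15 on intron reads (adjusted p 1.95e-16) and -3.10 on exon reads. *ZNF135* changed by 2.96 on intron reads (adjusted p 8.60e-11) and 1.92 on exon reads. *ZNF76* changed by 1.17 on intron reads (adjusted p 7.67e-11) and 0.87 on exon reads. *ZNF277* changed by -0.40 on intron reads (adjusted p 0.035) and -1.66 on exon reads, *ZNF143* by 1.26 on intron reads (adjusted p 4.86e-08) and 0.30 on exon reads, and *ZNF385A* by -1.50 on intron reads (adjusted p 2.61e-06) and -0.29 on exon reads, the last not called on exons (adjusted p 0.253). Both kinds of reads come from the same libraries, and the difference between them was not tested.

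Each dam group gave its own comparison of states with separate libraries, 3 against 2 pools. The ZNF median was -0.15 in HM, -0.20 in MM and -0.28 in LM, where that of all genes tested was -0.03, -0.02 and -0.04. By sign alone, of 221 ZNF genes tested in all 3 dam groups 113 were lower in each and 46 higher in each (71.9% together). Of 12782 genes in all, 5301 were lower in each and 4936 higher in each (80.1%). The shares called lower within single dam groups, given further below, lay near those of all genes.

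Dam nutrition itself left no called ZNF gene. Within late pregnancy 0 of 228 were called between HM, MM and LM by edgeR, as were 0 of 13747 genes tested (0%). At an unadjusted p under 0.05 there were 4 ZNF genes and 571 genes in all (4.15%), and DESeq2 called 20 genes, none of them ZNF. The lowest adjusted p of a ZNF gene was 0.132 by DESeq2 and 0.772 by edgeR, the latter for *ZNF185*, at means of 50.3 CPM in HM, 55.5 CPM in MM and 43.3 CPM in LM. The change between states differed between dam groups in 0 of 228 ZNF genes and 0 of 13345 genes (0%), with 11 ZNF genes and 876 genes at an unadjusted p under 0.05. DESeq2 called 21 genes for this interaction and no ZNF gene.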

How the data were processed

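The authors mapped paired Illumina reads with CLC Genomics Workbench and deposited, per gene and library, counts of reads on exons (all and uniquely placed) and on the whole gene, RPKM, and quantile-normalized RPKM, treated here as a signal. The deposited table also holds the authors' own fold changes and p-values, which were not used. The genome is Oar_v3.1 in the submitters' processing notes, while the methods name a later version; coordinates are as deposited.

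Counts of exon reads (whole-gene reads for 5583 features with no annotated transcript) were filtered with filterByExpr, scaled by TMM and compared by edgeR 4.0.16 quasi-likelihood tests, without covariates, with Benjamini-Hochberg adjustment over all genes tested; limma 3.58.1 and DESeq2 1.42.0 served as alternatives. Standard errors derive from the p-value and its degrees of freedom. Intron reads are whole-gene minus exon reads. Bands of like expression use the mean of log2(CPM + 0.1). The scripts were tested on simulated counts. Genes named are the 10 largest falls and rises with a mean of at least 1 CPM, the 8 highest RPKM in each state, members of fixed lists, those at the read limit, those whose call differs on unique reads, members of the longest runs, and the 5 uncalled ones of highest RPKM; *ZNF84*, *ZNF234*, *ZNF227*, *ZNF606*, *ZNF329* and *ZNF790* were named as run members or neighbours. The members and lists were chosen with earlier results of these data known. P-values measure the spread between pools, counts carry no molecular identifiers, and reads on overlapping or antisense genes cannot be told apart. RefSeq symbols matched 212 of the 258 names; its coordinates were not used.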

Additional observations from a re-analysis of the deposited data

Results flagged for a closer look

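Among 136 groups of libraries, the 2 states of 68 named ZNF genes, 5 held a library far from the others by Dixon's ratio, where chance alone flags about 1 group in 20. *ZNF683* reached 1.63 CPM in lactation pool LML_P1, against 0.783 CPM in the nearest library, and *ZNF521* fell to 0.659 CPM in lactation pool HML_P1, against 1.90 CPM in the nearest. In late pregnancy, *ZNF181* stood at 9.55 CPM in HMLP_P1 (nearest 7.57 CPM), *ZNF711* at 5.95 CPM in HMLP_P1 (nearest 7.17 CPM) and *ZNF335* at 25.2 CPM in LMLP_P2 (nearest 28.8 CPM). *ZNF683*, *ZNF521*, *ZNF181*, *ZNF711* and *ZNF335* kept their calls when any 1 library was left out.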

How the results depend on the processing

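Scaling by library size alone moved 223 ZNF genes to lower and 1 to higher, with a median log2 change of -2.10 where that of all genes was -1.94, and 133 members were called on intron reads. Upper quartile scaling gave 125 lower and 26 higher, with a median of -0.35. Requiring at least 10 reads in every library gave 25 higher among 159 members, which is fewer genes tested, where 34.9% of all genes were higher. With limma on quantile-normalized RPKM the median was -0.084 with 1 added and -0.126 with 0.1 added; the cause was not tested. Subsets of libraries held fewer samples. Lane 7 libraries alone gave 63 lower, where 25.8% of all genes tested were, and a median of -0.18, beside -0.03 for all genes. Lane 8 libraries alone gave a median of -0.25, beside -0.05 for all genes. The HM dam group alone gave 46 of 222 lower and 24 higher, beside 22.6% and 23.7% of all genes. The MM dam group gave 53 of 226 lower and 27 higher, beside 22.2% and 23.4%. The LM dam group gave 55 of 228 lower and 17 higher with a median of -0.28, beside 22.0% and 22.9%. Leaving out 1 library at a time gave 91 to 98 lower, 36 to 43 higher and a median of -0.216 to -0.183, and 0 genes called for dam nutrition each time.

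With dam group and pool number together as a replicate block, 92 ZNF genes were lower and 33 higher (median -0.21), where 32.7% and 30.8% of all genes tested were. Late pregnancy pools without a lactation pool of the same dam group and number gave this fit no information on the change. Same-numbered pools of the 2 states did not deviate together (correlations of -0.028 to 0.092, own number best in 2 of 6 pools), so the numbers were not taken to pair the samples. The block ended the calls of *ZNF281*, *ZNF619*, *ZNF638*, *ZNF667* and *ZNF830* and gave one to *ZNF354B*.

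Of 1875 single-gene values under alternatives for 68 named genes, 1733 kept their direction and side of the threshold. Library size scaling alone reversed 31 of them: *ZNF143* -1.61, *ZNF207* -1.57, *ZNF24* -1.68, *ZNF259* -1.58, *ZNF280B* -0.63, *ZNF281* -1.63, *ZNF295* -0.47, *ZNF335* -1.53, *ZNF384* -1.68, *ZNF407* -1.07, *ZNF451* -1.70, *ZNF467* -0.46, *ZNF516* -1.81, *ZNF576* -1.58, *ZNF592* -0.75, *ZNF593* -1.63, *ZNF598* -1.90, *ZNF622* -1.56, *ZNF638* -1.79, *ZNF641* -0.87, *ZNF644* -1.85, *ZNF652* -1.12, *ZNF654* -1.09, *ZNF664* -1.21, *ZNF667* -1.64, *ZNF687* -1.84, *ZNF692* -1.76, *ZNF704* -0.62, *ZNF75D* -1.77, *ZNF76* -1.04, *ZNF830* -1.67. On quantile-normalized RPKM *ZNF638* was at -0.051 with 0.1 added and -0.049 with 1 added, and *ZNF75D* at -0.142 and -0.141. Under upper quartile scaling *ZNF638* was at -0.031. Without 1 library, calls changed in *ZNF24*, *ZNF281*, *ZNF354B*, *ZNF365*, *ZNF384*, *ZNF423*, *ZNF619*, *ZNF638*, *ZNF667*, *ZNF692*, *ZNF75D* and *ZNF830*, as the report gives for most; *ZNF365* was called lower without lactation replicate 1 (log2 change -1.06) and *ZNF692* higher without late pregnancy replicate 4 (0.20), while *ZNF354B* was called lower without any of 4 libraries (-0.36 to -0.31). Of the 258 members 30 had too few reads to be kept.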

Other observations

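The median coefficient of variation of CPM between pools over the 228 ZNF genes was 12.5% in late pregnancy and 19.0% in lactation, against 12.3% and 15.8% over all genes tested. Lactation libraries gave a smaller share of their reads to these genes and held, by the labels, fewer ewes per pool (the methods give the same number in both states), and the part of either was not tested. Both members with the lowest shares of uniquely placed reads were chosen after their values were seen. *ZNF623*, with 10.6% of its exon reads uniquely placed, was not called on all reads (log2 change 0.25, adjusted p 0.135) and had too few unique reads to be tested. *ZNF276*, with 31.5%, overlaps *FANCA* and was higher both on all reads (0.46, adjusted p 7.20e-06) and on unique reads (0.51).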
